A study of Homo sapiens with 6 samples.

Results

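The mitochondrial ribosomal proteins are the nuclear-encoded subunits of the ribosome that works inside mitochondria. They were taken here as the genes whose single annotation symbol starts with MRPL or MRPS and a number, with pseudogenes left out. By that rule 75 genes were measured of 19775 on the array, through 140 probe sets, and each gene was read from its brightest probe set over the 6 arrays. Of the 75 genes, 48 carry an MRPL name, for the large subunit, and 27 an MRPS name, for the small subunit. The pseudogene MRPL45P2 and the antisense transcript MRPL20-AS1 were left out. Probe sets that also carry a second gene's symbol were left out as well, and the genes MRPL53 and MRPS24 have no other probe set and were not analysed here. All 75 genes passed the filter on dim probe sets, a mean of at least 4 on the log2 scale. Their means lay between 6.01 and 13.31 with a median of 10.54, so none had to be high in 1 group to pass.

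The cells were H1299, a p53-deficient line from a human lung carcinoma of the non-small-cell kind, grown in 10% serum. Knockdown cells carried 1 of 2 lentiviral shRNAs against RBP2, called shRNA 1 (RBP2 KD1) and shRNA 2 (RBP2 KD2), and the control cells carried a scramble shRNA. Each group had 2 arrays of RNA collected 72 hours after infection, 6 arrays in all. RBP2 is an older name of KDM5A, which removes methyl groups from lysine 4 of histone H3 and is known to bind promoters of many nuclear genes for mitochondrial proteins. Every group thus carried an shRNA, and no cells without one were compared. The labels describe lentiviral infection for the RBP2 shRNAs and do not spell out how the scramble shRNA was delivered. Whether replicates came from separate cultures is not given in the labels. The p-values therefore measure only how far these arrays spread, and that spread may be technical. These are bulk RNA values, in which fewer cells of a kind and less RNA per cell cannot be told apart.

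KDM5A itself measured 7.42 and 7.27 on the log2 scale in shRNA 1 cells, 6.66 and 6.72 in shRNA 2 cells, and 9.35 and 9.42 in scramble cells. All 4 knockdown arrays lay below both scramble arrays. The line's keratins KRT8 and KRT18 and vimentin (VIM) were above the filter, and EPCAM and CDH1 were below it. Among markers of other cells, 0 of 3 leukocyte and 0 of 4 endothelial genes passed the filter, and of 5 fibroblast genes COL1A1 did. The summed log2 values of the 5 fibroblast genes were 15.2 to 15.7 in shRNA 1 arrays, 15.8 to 16.0 in shRNA 2 arrays and 15.2 to 15.4 in scramble arrays. Their part in the results was not tested.

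As background, the mitochondrial ribosome translates the small set of respiratory chain proteins that mitochondrial DNA encodes. Its RNAs come from mitochondrial DNA, while its proteins are made in the cytosol and imported. Part of these proteins have counterparts in bacterial ribosomes and part are particular to mitochondria. The large subunit joins amino acids and holds the exit tunnel, and the small subunit reads the messenger RNA. Promoters of these genes are known for binding sites of the ETS factor GABPA and of NRF1 and YY1. The names do not match the structure throughout: MRPS18A and MRPS30 sit in the large subunit of the human particle.

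Promoter sequences are shown for 5 genes on which the results turn: the 3 called in the mean of both shRNAs (MRPL49, MRPS23 and MRPS9) and the 2 called lower with shRNA 1 (MRPL27 and MRPL40). Each runs 5′ to 3′ along the gene's own strand from 250 bases before the annotated start to 50 after it, and was taken from RefSeq, build GRCh38.p14. Capitals mark matches on either strand to 5 motifs: CCGGAAG (GABPA and other ETS factors), an NRF1 motif given by name, AAGATGGCG (YY1), CCGCCC (bound by the ARID domain of KDM5A) and CACGTG (the E-box of MYC).
MRPL49, chr11:65121933-65122232, plus strand: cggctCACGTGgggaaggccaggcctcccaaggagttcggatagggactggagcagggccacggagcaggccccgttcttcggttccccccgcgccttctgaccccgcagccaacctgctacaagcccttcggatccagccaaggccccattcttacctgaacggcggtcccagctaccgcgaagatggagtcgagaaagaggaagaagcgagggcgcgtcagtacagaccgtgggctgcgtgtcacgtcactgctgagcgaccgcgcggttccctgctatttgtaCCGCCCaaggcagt
MRPS23, chr17:57849995-57850294, minus strand: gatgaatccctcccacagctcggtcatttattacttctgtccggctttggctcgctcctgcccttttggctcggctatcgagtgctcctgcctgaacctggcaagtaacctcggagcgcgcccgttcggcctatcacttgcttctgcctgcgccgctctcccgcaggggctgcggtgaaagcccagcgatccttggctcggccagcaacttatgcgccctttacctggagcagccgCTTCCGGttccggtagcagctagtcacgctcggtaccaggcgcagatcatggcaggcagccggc
MRPS9, chr2:105037819-105038118, plus strand: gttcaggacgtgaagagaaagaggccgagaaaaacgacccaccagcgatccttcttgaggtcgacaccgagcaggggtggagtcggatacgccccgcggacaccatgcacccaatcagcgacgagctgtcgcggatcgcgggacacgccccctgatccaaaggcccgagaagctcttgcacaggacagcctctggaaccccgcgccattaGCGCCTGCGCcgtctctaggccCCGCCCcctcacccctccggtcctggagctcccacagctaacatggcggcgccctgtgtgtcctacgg
MRPL27, chr17:50373135-50373434, minus strand: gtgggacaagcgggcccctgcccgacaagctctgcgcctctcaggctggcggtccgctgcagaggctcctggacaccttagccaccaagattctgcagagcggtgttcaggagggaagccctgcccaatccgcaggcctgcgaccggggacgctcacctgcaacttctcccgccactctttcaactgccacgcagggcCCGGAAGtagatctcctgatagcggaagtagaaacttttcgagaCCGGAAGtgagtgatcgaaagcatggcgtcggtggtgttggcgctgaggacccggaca
MRPL40, chr22:19432295-19432594, plus strand: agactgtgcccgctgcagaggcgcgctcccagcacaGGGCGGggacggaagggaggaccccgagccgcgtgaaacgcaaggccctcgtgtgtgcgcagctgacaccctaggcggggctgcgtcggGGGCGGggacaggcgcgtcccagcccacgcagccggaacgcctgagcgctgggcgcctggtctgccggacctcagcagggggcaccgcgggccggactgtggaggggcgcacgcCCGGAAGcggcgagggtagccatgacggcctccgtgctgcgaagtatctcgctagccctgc
MRPL49 held 1 CCGCCC and 1 E-box, MRPS23 held 1 ETS match, MRPS9 held 1 NRF1 match and 1 CCGCCC, MRPL27 held 2 ETS matches, and MRPL40 held 1 ETS match and 2 CCGCCC matches. A match is a run of letters and not a shown binding site.

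Over both knockdowns the median of the mitochondrial ribosomal protein genes lay slightly above scramble, a value that turned with 1 scramble array, and 3 single genes passed the test. Both shRNAs were compared with the same 2 scramble arrays. The median log2 difference of the 75 genes, the mean of both shRNAs minus scramble, was 0.14, against 0.02 for all 10526 tested genes. Of the 75 genes 52 (69.3%) lay above 0, against 52.1% of all tested genes. Without scramble replicate 2, which sets all knockdown arrays against scramble replicate 1 alone, the median was -0.03, with 36 genes above 0 (48%, against 51.6% of all tested genes). It was 0.31 with 59 genes above 0 without scramble replicate 1, 0.08 without replicate 1 of shRNA 1 and 0.24 without its replicate 2. Calls rest on limma with Benjamini-Hochberg adjustment over all tested genes, at an adjusted p under 0.05. By that rule MRPS23 and MRPS9 rose (2.67% of the 75, against 5.61% of all tested genes) and MRPL49 fell (1.33%, against 6.92%). Together these are 4.0% of the 75 genes, below the 12.5% of all tested genes called. The count was 4 higher and 1 lower with arrays centred on their medians and 5 higher and 1 lower with quantile normalization. With 1 array left out limma called 0 of the 75 genes each time (7 to 18 at an unadjusted p under 0.05), but also 0 to 457 of all 10526 tested genes, so that count says nothing about these genes.

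MRPS23, a small subunit protein that bacteria lack, measured 12.50 and 12.13 in shRNA 1 cells, 12.70 and 12.40 in shRNA 2 cells, and 11.68 and 11.35 in scramble cells. All 4 knockdown arrays were above both scramble arrays. It was 1.88-fold higher over both shRNAs (log2 0.91 ± 0.18 SE, limma adjusted p = 0.039), and its second, dimmer probe set had log2 differences of 0.67 with shRNA 1 and 0.52 with shRNA 2. MRPS9, the counterpart of bacterial S9 in the head of the small subunit, measured 9.82 and 9.74 in shRNA 1 cells, 9.65 and 9.54 in shRNA 2 cells, and 9.27 and 9.01 in scramble cells. These groups did not overlap either, and MRPS9 was 1.46-fold higher (log2 0.54 ± 0.12, adjusted p = 0.046). MRPL49, a large subunit protein without a bacterial counterpart, measured 8.63 and 8.47 in shRNA 1 cells, 7.11 and 7.40 in shRNA 2 cells, and 9.05 and 8.74 in scramble cells. The shRNA 2 arrays stood far below the other 4, and the mean of both shRNAs was 1.99-fold lower (log2 -0.99 ± 0.15, adjusted p = 0.023). With 1 array left out the log2 difference ran from 0.75 to 1.08 for MRPS23, from 0.41 to 0.68 for MRPS9 and from -1.15 to -0.84 for MRPL49. None of the 3 was called in those smaller fits, which called few genes of any kind.

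**Figure D1:**
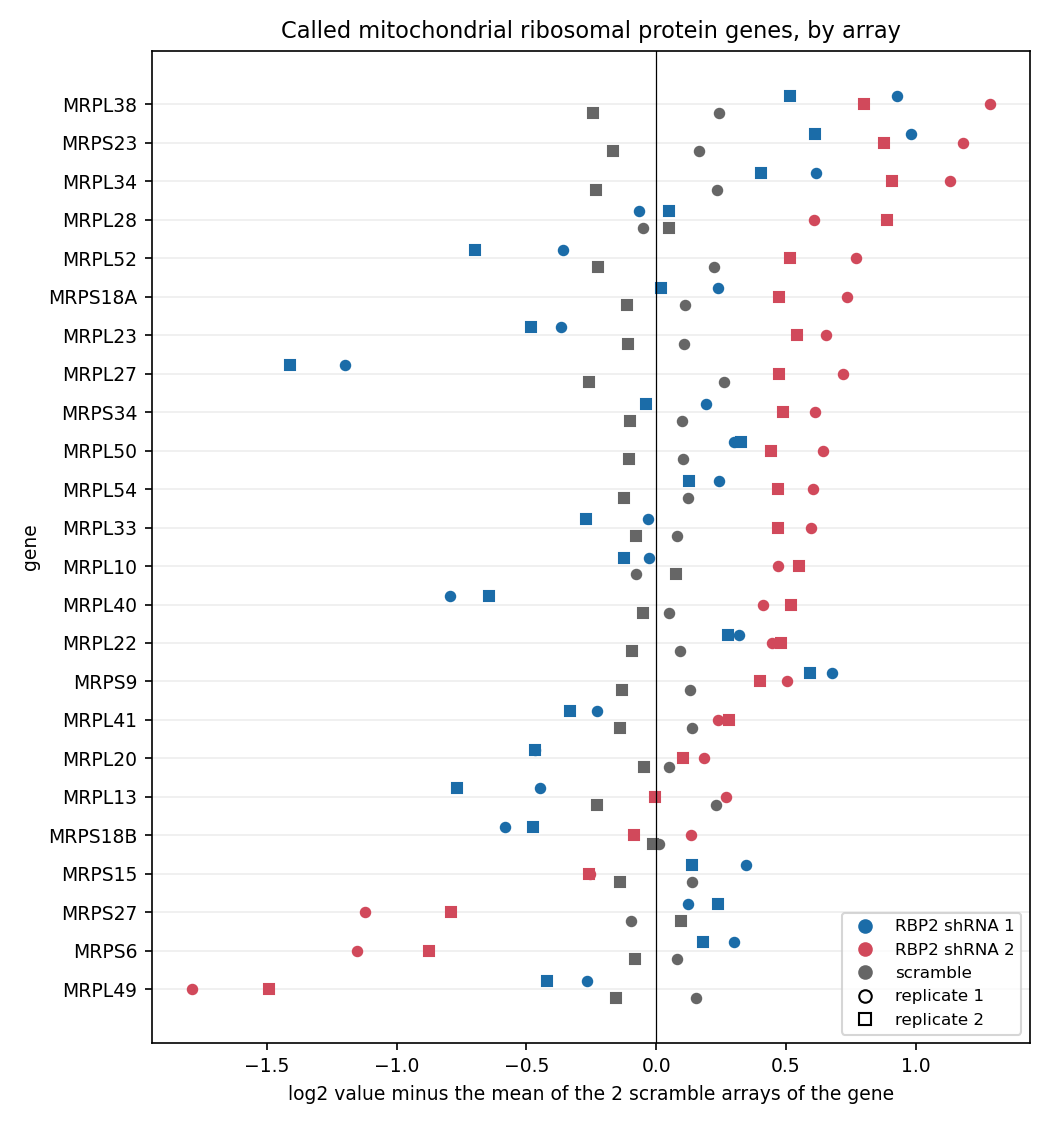
The 24 genes called in at least 1 comparison, with genes down the page and the log2 value of each array minus the mean of the 2 scramble arrays along the horizontal axis; circles are replicate 1 and squares replicate 2. MRPL49, MRPS6 and MRPS27 have both shRNA 2 arrays far left of scramble, MRPL27 and MRPL40 have both shRNA 1 arrays left of it, and MRPL38, MRPS23 and MRPL34 have all 4 knockdown arrays right of it.

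Replicate number moved with these genes in all 3 groups, which bears on every comparison below. Replicate 1 was above replicate 2 in 67 of 75 genes in shRNA 1 cells, in 60 of 75 in shRNA 2 cells and in 72 of 75 in scramble cells. Among all tested genes the shares were 49.5%, 44.5% and 47.6%. The median difference of the 75 genes, replicate 1 minus replicate 2, was 0.24 in shRNA 1 cells, 0.15 in shRNA 2 cells and 0.33 in scramble cells, and over all tested genes it was 0.00, -0.02 and 0.00. Genes as bright as the upper part of these 75 showed no such tilt: of the 2018 tested genes at or above the median brightness of the 75, 49.4%, 50.7% and 51.4% were higher in replicate 1. The 45 other probe sets of the 75 genes above the filter showed a weaker tilt. Replicate 1 was higher in 34, 26 and 31 of them in shRNA 1, shRNA 2 and scramble cells in turn, with medians of 0.13, 0.10 and 0.16. In 57 of the 75 genes (76.0%) replicate 1 was higher in all 3 groups, against 26.5% of all tested genes. In the other 18 genes replicate 1 was lower in at least 1 group: 8 genes in shRNA 1 cells, 15 in shRNA 2 cells and 3 in scramble cells, with 9 of them in shRNA 2 cells alone. MRPL28 and MRPS27 were lower in replicate 1 in all 3 groups, and MRPL10 was lower in it in shRNA 2 and scramble cells. What differed between the replicates was not tested.

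**Figure D2:**
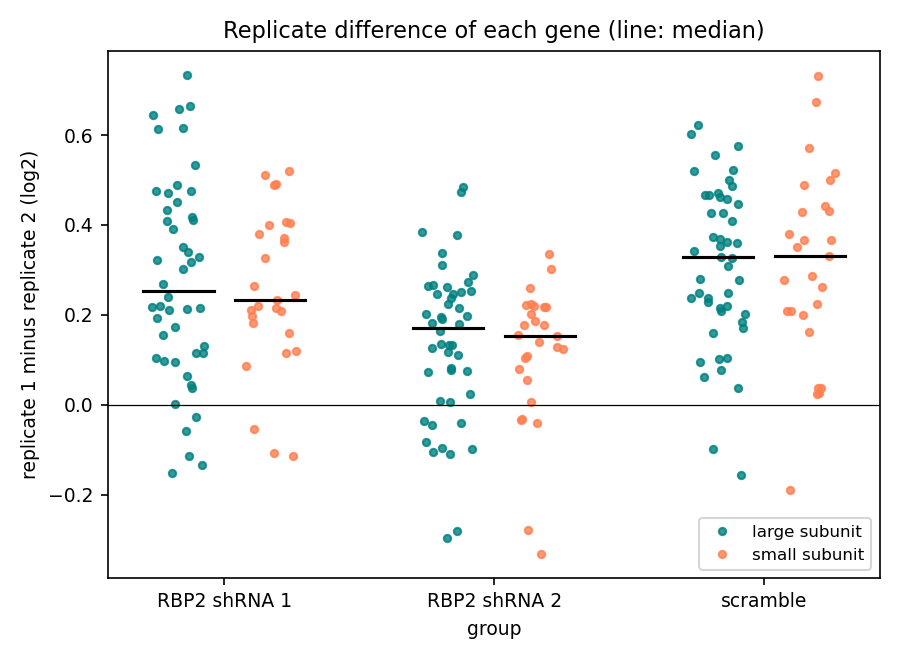
The log2 difference of replicate 1 minus replicate 2 for each of the 75 genes in each group, with large subunit genes left and small subunit genes right in each pair and a line at the median. In scramble cells 72 of the 75 points lie above 0, in shRNA 1 cells 67 and in shRNA 2 cells 60.

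Since same-numbered arrays deviated together over all tested genes, the comparison was also made with the replicate number as a block, that is, within replicate 1 and within replicate 2. The mean of both shRNAs then called 24 of the 75 genes (32.0%, against 34.9% of all tested genes). Of these, 20 were higher (26.7%, against 17.4%) and 4 lower (5.33%, against 17.5%). The genes called higher were 13 of the large and 7 of the small subunit, among them MRPL12, part of the stalk that recruits translation factors, and MRPL4, MRPL38, MRPL34 and MRPS7. The genes called lower were MRPL15, MRPL48, MRPL49 and MRPS27. Without the block, MRPS7 (log2 0.76 ± 0.25, adjusted p = 0.11), MRPL34 (0.77 ± 0.17, 0.052) and MRPL38 (0.88 ± 0.23, 0.07) were not called. Within replicate 1 the median of the 75 genes was 0.09 for shRNA 1 minus scramble and 0.12 for shRNA 2 minus scramble. Within replicate 2 it was 0.12 and 0.33. All 4 knockdown arrays lay above both scramble arrays in 15 genes (20.0%, against 12.9% of all tested genes) and below both in 3, MRPL15, MRPL48 and MRPL49 (4.0%, against 9.03%).

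With shRNA 1, 1 gene rose (1.33% of the 75, against 3.62% of all tested genes) and 2 fell (2.67%, against 7.9%). The 3 genes are 4.0% of the 75, below the 11.5% of all tested genes called. The median log2 difference was 0.08, against 0.00 for all tested genes. It was 0.00 without shRNA 1 replicate 1 or without scramble replicate 2, and 0.24 without shRNA 1 replicate 2 or without scramble replicate 1. The shRNA 1 arrays lay above both scramble arrays in 20 genes (26.7%, against 26.4%) and below both in 11 (14.7%, against 27.4%). MRPL27, the counterpart of bacterial L27, which in bacteria reaches toward the site of peptide bond formation, measured 9.85 and 9.64 in shRNA 1 cells, 11.77 and 11.52 in shRNA 2 cells, and 11.31 and 10.79 in scramble cells. It was 2.47-fold lower with shRNA 1 (log2 -1.30 ± 0.22, adjusted p = 0.028), while the shRNA 2 arrays lay above scramble. MRPL40, a large subunit protein whose gene lies in the region of chromosome 22 deleted in DiGeorge syndrome, measured 10.80 and 10.95 in shRNA 1 cells, 12.00 and 12.11 in shRNA 2 cells, and 11.64 and 11.54 in scramble cells. It was 1.65-fold lower with shRNA 1 (-0.72 ± 0.12, adjusted p = 0.027). MRPS9 was 1.55-fold higher (0.64 ± 0.13, adjusted p = 0.047). The largest falls that did not pass were MRPL13 (-0.61 ± 0.22), MRPL52 (-0.53 ± 0.22) and MRPS18B (-0.53 ± 0.12). The largest rises that did not pass were MRPS23 (0.80 ± 0.21), MRPS7 (0.79 ± 0.29), MRPL38 (0.72 ± 0.27) and MRPL4 (0.61 ± 0.31). All of these rises but that of MRPL4 were larger than the called rise of MRPS9. With the replicate block 18 genes were called (24.0%, against 29.6% of all tested genes), 10 higher (13.3%, against 12.8%) and 8 lower (10.7%, against 16.8%). With 1 array left out limma called 0 of the 75 genes (9 to 15 at an unadjusted p under 0.05) and 0 to 191 of all 10526 tested genes, so that count says nothing about these genes.

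With shRNA 2, 13 genes rose and 3 fell, 21.3% of the 75, against 31.0% of all tested genes called. The rises are 17.3% of the 75 genes, close to the 16.7% of all tested genes called higher, and the falls are 4.0%, against 14.4% called lower. The median was 0.22, against 0.08 for all tested genes, and 56 of 75 genes (74.7%) lay above 0, against 56.0% of all tested genes. Without scramble replicate 2 the median was 0.08, against 0.07 for all tested genes, and 42 of 75 genes lay above 0 (56.0%, against 55.1%). Without scramble replicate 1 it was 0.38. The shRNA 2 arrays lay above both scramble arrays in 37 genes (49.3%, against 40.0%) and below both in 10 (13.3%, against 29.8%). Without probe sets prone to cross-hybridisation 5 of 39 genes were called lower and 8 higher, against 15% and 16.8% of all tested genes. In that setting 24 genes lay above 0 (61.5%, against 55% of all tested genes). Their median was then 0.14, against 0.07.

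Of the 13 rises with shRNA 2, 10 were among the 48 large and 3 among the 27 small subunit genes, beside 16.7% of all tested genes. Without probe sets prone to cross-hybridisation, 6 of 24 large and 2 of 15 small subunit genes were called higher, beside 16.8%. MRPL38, particular to the mitochondrial large subunit, measured 8.47 and 7.98 in shRNA 2 cells, against 7.42 and 6.94 in scramble cells, and was 2.06-fold higher (log2 1.04 ± 0.27, adjusted p = 0.04). MRPL34, the counterpart of bacterial L34, measured 11.58 and 11.35, against 10.68 and 10.21 in scramble cells, and was 2.03-fold higher (1.02 ± 0.20, adjusted p = 0.02). MRPS23 was 2.04-fold higher (1.03 ± 0.21, adjusted p = 0.021). In these 3 genes the shRNA 2 arrays were above both scramble arrays. MRPL28, the counterpart of bacterial L28, measured 8.98 and 9.09 in shRNA 1 cells, 9.65 and 9.93 in shRNA 2 cells, and 8.99 and 9.09 in scramble cells, so shRNA 1 and scramble cells had nearly the same values. Its rise with shRNA 2 was 1.68-fold (0.75 ± 0.14, adjusted p = 0.017).

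The other rises with shRNA 2 were smaller. MRPL23 and MRPL22, whose bacterial counterparts line the exit tunnel, rose by 0.60 ± 0.13 and 0.46 ± 0.11 (adjusted p = 0.025 and 0.036). MRPL10, which anchors the stalk, rose by 0.51 ± 0.12 (0.029) and MRPL33 by 0.53 ± 0.14 (0.042). MRPL50 and MRPL54, both particular to mitochondria, rose by 0.54 each (0.036 and 0.039), and MRPL40 rose by 0.46 ± 0.12 (0.039). MRPS18A, which sits in the large subunit despite its name, rose by 0.60 ± 0.16 (0.044) and MRPS34, a small subunit protein known from Leigh syndrome, rose by 0.55 ± 0.14 (0.041). MRPL12 had 0.77 ± 0.26 and did not pass (adjusted p = 0.081).

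The 3 falls with shRNA 2 were MRPL49, MRPS6 and MRPS27, and the fall of MRPL49 was the largest difference of the 75 genes with this shRNA. MRPL49 was 3.12-fold lower (log2 -1.64 ± 0.17, adjusted p = 0.005), and this call held whichever array was left out, with adjusted p up to 0.048. MRPS6, the counterpart of bacterial S6, measured 10.30 and 10.19 in shRNA 1 cells, 8.85 and 9.13 in shRNA 2 cells, and 10.09 and 9.92 in scramble cells. It was 2.02-fold lower with shRNA 2 (-1.01 ± 0.14, adjusted p = 0.0094), and the shRNA 1 arrays lay just above scramble. MRPS27, a pentatricopeptide repeat protein of the small subunit, measured 10.64 and 10.76 in shRNA 1 cells, 9.40 and 9.73 in shRNA 2 cells, and 10.42 and 10.61 in scramble cells. It was 1.94-fold lower with shRNA 2 (-0.95 ± 0.16, adjusted p = 0.013). MRPS26 had -0.70 ± 0.24 (adjusted p = 0.085) and MRPL15 had -0.45 ± 0.21 (0.16), and neither passed.

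With the replicate block shRNA 2 called 38 genes (50.7%, against 50.6% of all tested genes), 32 higher (42.7%, against 28.4%) and 6 lower (8.0%, against 22.2%). In the unblocked comparison, leaving out replicate 1 of shRNA 2 left 1 called gene, MRPL49, and leaving out its replicate 2 left 3. Leaving out either scramble array left 2, and leaving out either shRNA 1 array left 10. Of all tested genes these fits called 624 and 1073 (without shRNA 2 replicates 1 and 2), 969 and 1422 (without scramble replicates 1 and 2) and 2928 (without either shRNA 1 array), against 3264 with all arrays.

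**Figure D3:**
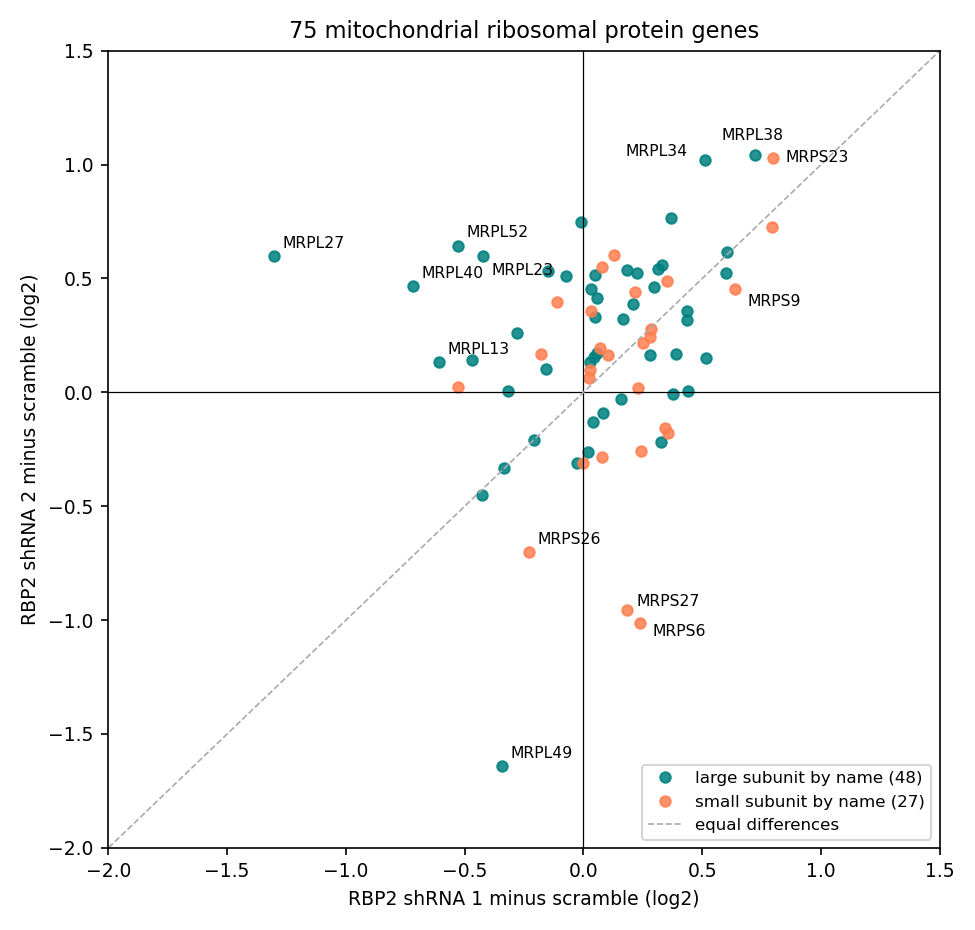
Each of the 75 genes by its log2 difference of shRNA 1 minus scramble (horizontal) and shRNA 2 minus scramble (vertical), large and small subunit by name in 2 colours; both axes use the same scramble arrays. MRPL27, MRPL40, MRPL23 and MRPL52 lie left of 0 and above it, and MRPS6 and MRPS27 lie right of 0 and far below it.

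More of these genes were called between the shRNAs than for shRNA 1 against scramble. The same held for all tested genes (41.1%, against 11.5%). Of the 75 genes, 12 were lower and 4 higher with shRNA 1 than with shRNA 2, 21.3% of the 75, against 41.1% of all tested genes called. The lower genes are 16.0% (against 23.3%) and the higher 5.33% (against 17.8%). Without probe sets prone to cross-hybridisation, 4 of 39 genes were lower and 7 higher (against 23% and 18.9% of all tested genes). With probe sets averaged per gene, 10 were lower and 7 higher (against 22.4% and 17.5%). Both shRNA 1 arrays lay below both shRNA 2 arrays in 28 genes (37.3%, against 40.6%) and above both in 19 (25.3%, against 32.2%). The largest was MRPL27, which was 3.73-fold lower with shRNA 1 than with shRNA 2 (log2 -1.90 ± 0.22, adjusted p = 0.0034). MRPL40 was 2.27-fold lower (-1.18 ± 0.12, adjusted p = 0.0025). MRPL52 measured 10.88 and 10.54 in shRNA 1 cells, 12.01 and 11.76 in shRNA 2 cells, and 11.47 and 11.02 in scramble cells, so scramble lay between the shRNAs, and it was 2.25-fold lower with shRNA 1 than with shRNA 2 (-1.17 ± 0.22, adjusted p = 0.012). MRPL23 measured 9.78 and 9.67 in shRNA 1 cells, 10.80 and 10.69 in shRNA 2 cells, and 10.26 and 10.04 in scramble cells, the same order, and was 2.03-fold lower (-1.02 ± 0.13, adjusted p = 0.0044).

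In the other direction MRPL49 was 2.45-fold higher with shRNA 1 than with shRNA 2, MRPS6 2.39-fold and MRPS27 2.20-fold. MRPS15, the counterpart of bacterial S15, was 1.41-fold higher (log2 0.50 ± 0.15, adjusted p = 0.046). Its 2 other probe sets above the filter had 0.67 and 1.08. The differences of MRPL23, MRPL27, MRPL40, MRPL49, MRPS6 and MRPS27 were called whichever array was left out, and those of the other 10 genes were not. MRPS18B was 1.47-fold lower with shRNA 1 (-0.55 ± 0.12, adjusted p = 0.022), with -0.74 by its other probe set, and MRPL41 1.46-fold lower (-0.54 ± 0.14, adjusted p = 0.03). Over the 16 called genes, 6 further probe sets above the filter belonged to 4 of them, and all 6 had the same sign. With the replicate block 34 genes differed (45.3%, against 57.7%), 25 lower (33.3%, against 32.6%) and 9 higher (12.0%, against 25.1%). Leaving out 1 array gave counts of 10 and 8 (shRNA 1, replicates 1 and 2), 7 and 8 (shRNA 2, replicates 1 and 2) and 14 (either scramble array), and 1874 to 3718 of all tested genes.

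The median log2 difference of the mean of both shRNAs minus scramble was 0.19 for the 48 MRPL genes and 0.13 for the 27 MRPS genes. With shRNA 1 the order turned round, 0.05 for the large and 0.18 for the small subunit, with 31 of 48 and 22 of 27 genes above 0. With shRNA 2 it was 0.32 and 0.17, with 37 of 48 and 19 of 27 genes above 0. Without probe sets prone to cross-hybridisation the large subunit median with shRNA 2 was 0.06, against 0.07 for all tested genes. Of those large subunit genes 13 of 24 lay above 0, against 55% of all tested genes. The small subunit median was then 0.28, with 11 of 15 genes above 0. Between shRNA 1 and shRNA 2 the large subunit had a median of -0.17, with 10 genes called lower and 1 higher. The small subunit had 0.01, with 2 lower and 3 higher. Of all tested genes 23.3% were called lower and 17.8% higher in that comparison. Without probe sets prone to cross-hybridisation 3 of 24 large subunit genes were called lower there and 4 higher. Of 15 small subunit genes 1 was called lower and 3 higher, and of all tested genes 23% and 18.9%. The large subunit median was then -0.04, against -0.05 for all tested genes. Placing MRPS18A and MRPS30 in the large subunit, as in the structure, left the large minus small difference at 0.06 for both shRNAs, -0.13 for shRNA 1 and 0.15 for shRNA 2. Without the probe sets prone to cross-hybridisation, which left 24 of 48 large and 15 of 27 small subunit genes, the large minus small difference was -0.22 with shRNA 2, -0.09 over both shRNAs and -0.13 with shRNA 1. With probe sets averaged per gene it was 0.08, 0.09 and -0.06. With 1 array left out the large subunit median ran from 0.03 to 0.31 over both shRNAs, from -0.07 to 0.22 with shRNA 1 and from 0.11 to 0.42 with shRNA 2, and the small subunit median from -0.06 to 0.33, from 0.02 to 0.32 and from -0.01 to 0.34. Between the shRNAs the large subunit median was -0.41 without replicate 1 of shRNA 1 and 0.01 without its replicate 2. No test was made of these medians.

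**Figure D4:**
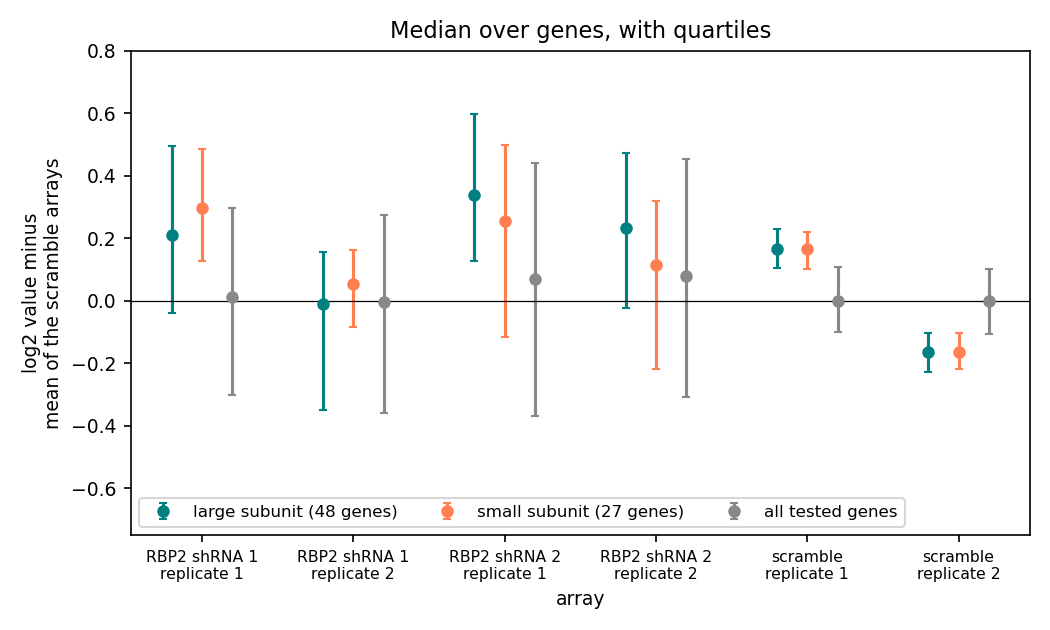
Medians with quartiles over genes of the log2 value minus the mean of the scramble arrays, for each of the 6 arrays, for large subunit genes, small subunit genes and all tested genes. Large and small subunit medians of the scramble arrays stand at 0.16 and 0.17 in replicate 1 and at -0.16 and -0.17 in replicate 2, while the medians of all tested genes stay near 0.

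By array, the median of the large subunit genes relative to the scramble mean was 0.21 and -0.01 in shRNA 1 cells, 0.34 and 0.23 in shRNA 2 cells, and 0.16 and -0.16 in scramble cells. The shRNA 2 arrays were above both scramble arrays, and the shRNA 1 arrays overlapped them. The median of the small subunit genes was 0.30 and 0.05 in shRNA 1 cells, 0.26 and 0.12 in shRNA 2 cells, and 0.17 and -0.17 in scramble cells, so both knockdown groups overlapped scramble when replicate numbers are ignored. Each knockdown array lay above the scramble array of its own replicate number in both subunits. The 46 genes assigned a bacterial counterpart here had a median of 0.14 over both shRNAs and 0.23 with shRNA 2. The 29 genes not assigned one here, MRPL47 among them, had 0.19 in both comparisons, and the difference was not tested.

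The remaining 51 genes were called in no comparison without the replicate block, and 26 of them were called in at least 1 comparison with it. Per comparison 11.5% to 41.1% of all tested genes were called without the block and 29.6% to 57.7% with it. These counts therefore say nothing particular about these genes. Over all 75 genes the log2 difference ran from -1.30 to 0.80 with shRNA 1 and from -1.64 to 1.04 with shRNA 2, while all tested genes ran from -3.88 to 2.71 and from -6.24 to 3.86. MRPL51 and MRPL3 had the brightest probe sets beside MRPL20. MRPL51 measured 13.41 and 13.35 in shRNA 1 cells, 13.33 and 13.09 in shRNA 2 cells, and 13.45 and 13.23 in scramble cells, and the groups overlapped. MRPL3 had -0.21 ± 0.23 with each shRNA and was not called. The dimmest probe sets were those of MRPL2, MRPL55 and MRPL4, with 0.44 ± 0.23, 0.56 ± 0.14 and 0.61 ± 0.27 in the mean comparison, and none passed. Brightness differs between probe sets for technical reasons, so it gives no order of transcript levels.

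Promoter windows were at hand for 67 of the 75 genes, and 2 motifs were more frequent among them than among tested genes. The ETS motif CCGGAAG was found in 28 of 67 windows (41.8%), against 20.9% of 8733 windows of tested genes and 10.7% of all 27305 windows. The YY1 motif AAGATGGCG was found in 12 of 67 (17.9%), against 4.37% and 1.85%. The NRF1 motif was found in 8 (11.9%), against 13.1% and 6.28%, and the E-box in 6 (8.96%), against 10.9% and 7.43%. CCGCCC, the letters bound by the ARID domain of KDM5A, was found in 40 (59.7%), against 71.9% and 44.6%. The ETS motif was in 16 of 41 large and 12 of 26 small subunit windows. Among the factors, GABPA had 0.01 ± 0.17 with shRNA 1 and -0.25 ± 0.17 with shRNA 2 and was not called. Its partner GABPB1 fell with shRNA 2 (-0.98 ± 0.18, adjusted p = 0.016), and NRF1 fell as well (-0.45 ± 0.12, adjusted p = 0.042).

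**Figure D5:**
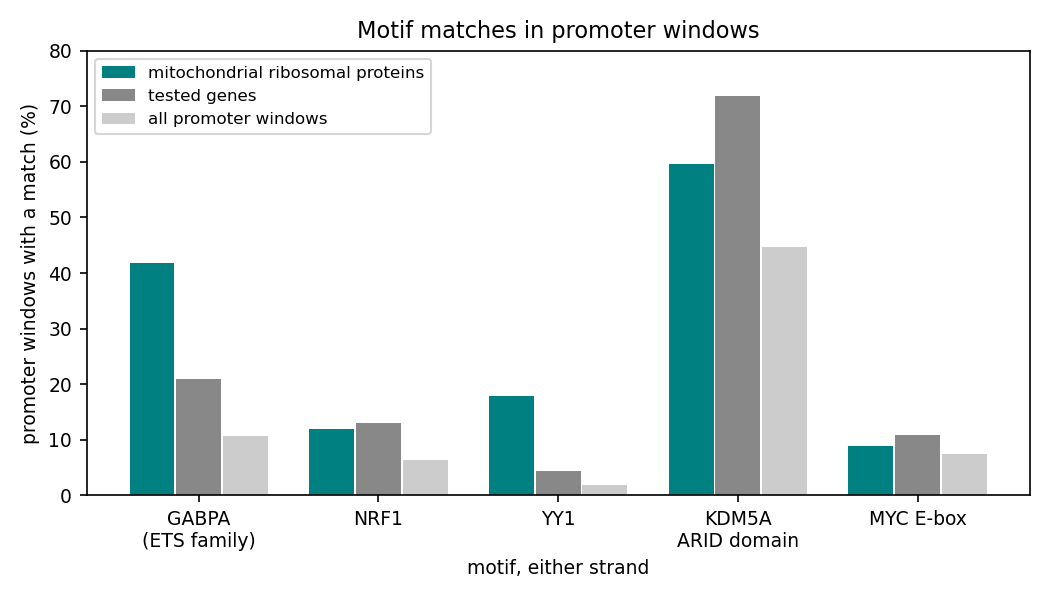
Percent of promoter windows with at least 1 match to each motif on either strand, for the 67 mitochondrial ribosomal protein genes with a window, for tested genes and for all windows. The ETS and YY1 bars of the 67 genes stand above the other bars at 41.8% and 17.9%, and the KDM5A bar stands below that of tested genes at 59.7%.

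Part of these genes start close to a gene on the opposite strand. For 22 of the 67 genes with a window (32.8%) a protein-coding gene started within 1000 bases on the other strand, against 18.6% of the 8733 windows of tested genes, and in 20 of these the partner was tested too. MRPL49 lies opposite FAU, a cytosolic ribosomal protein gene that starts 49 bases upstream. FAU measured 13.70 and 13.57 in shRNA 1 cells, 13.67 and 13.67 in shRNA 2 cells, and 13.56 and 13.54 in scramble cells, and was not called (0.12 ± 0.11 with shRNA 2), beside the 3.12-fold fall of MRPL49. MRPL27 starts 45 bases from EME1, an endonuclease subunit: with shRNA 1 and shRNA 2 in turn MRPL27 had -1.30 and 0.60 and EME1 had -0.40 and -1.38. MRPL40 and its partner HIRA, a histone chaperone, both rose with shRNA 2 (0.46 and 1.12) and both were lower with shRNA 1 than with shRNA 2 (-1.18 and -1.21). Over the 20 pairs, with the pair of MRPL46 and MRPS11 counted from both sides, 13 had the same sign with shRNA 1 and 10 with shRNA 2. Of 4 pairs with both genes called with shRNA 2, 2 had the same sign. Between the shRNAs 11 of the 20 pairs had the same sign, and of 2 pairs with both genes called there, 1 did. The pair that did not was MRPS18B (-0.55) and PPP1R10 (0.79). MRPL46 and MRPS11 share such a start, 320 bases apart, and had 0.44 and 0.36 with shRNA 1 and 0.01 and -0.18 with shRNA 2. Neither was called without the replicate block. With it MRPL46 was called with shRNA 1 (adjusted p = 0.042), and between the shRNAs both were called (0.024 and 0.038).

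In the other lists of mitochondrial gene expression single genes passed. The median over both shRNAs was 0.05 for assembly factors, 0.04 for translation factors, 0.07 for transcription and RNA processing and -0.23 for regulators. Their counts over both shRNAs stand beside 5.61% of all tested genes called higher and 6.92% lower, and, with the replicate block, 17.4% and 17.5%. With shRNA 1 these shares were 3.62% and 7.9%, and with shRNA 2 they were 16.7% and 14.4%. Among 22 tested assembly factors of the mitochondrial ribosome, 1 rose over both shRNAs, RPUSD4, which modifies the large ribosomal RNA (log2 0.64 ± 0.09, adjusted p = 0.022). RPUSD4 measured 9.75 and 9.74 in shRNA 1 cells, 9.78 and 9.80 in shRNA 2 cells, and 9.20 and 9.06 in scramble cells, with no overlap between knockdown and scramble arrays. With shRNA 1 RPUSD4 rose, and TFB1M, the methyltransferase of the small ribosomal RNA (-0.59 ± 0.12, adjusted p = 0.041), and NGRN (-0.84 ± 0.16, 0.037) fell. With shRNA 2 RPUSD4 and TRUB2 rose (0.66 and 0.75) and ERAL1, a chaperone of the small ribosomal RNA, fell (-0.69 ± 0.11, adjusted p = 0.013). With the replicate block 4 of the 22 rose and 3 fell over both shRNAs.

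Of 11 tested translation factors 1 fell over both shRNAs and none rose, while with the replicate block 4 rose and 1 fell. The gene that fell without the block was GFM1, the elongation factor that moves the ribosome along the messenger (-0.52 ± 0.11, adjusted p = 0.044), with -1.11 for shRNA 1 and 0.06 for shRNA 2. GFM1 measured 9.48 and 9.38 in shRNA 1 cells, 10.68 and 10.52 in shRNA 2 cells, and 10.63 and 10.45 in scramble cells, so shRNA 2 cells overlapped scramble. With shRNA 2 the release factor MTRF1L rose by 0.87 ± 0.13 (adjusted p = 0.011) and TACO1, an activator of translation of a cytochrome oxidase subunit, by 0.73 ± 0.17 (0.034). Of 14 tested genes of mitochondrial transcription and RNA processing, HSD17B10 rose with both shRNAs, by 2.71 and 2.07. HSD17B10 is a subunit of mitochondrial RNase P, and the other subunits TRMT10C and PRORP had 0.22 ± 0.20 and 0.00 ± 0.09 over both shRNAs and were not called. TEFM, the transcription elongation factor, fell with shRNA 2 (-0.78 ± 0.15, adjusted p = 0.02). Of 9 tested regulators, ESRRA fell over both shRNAs (-0.70 ± 0.10, adjusted p = 0.021), with -1.35 for shRNA 1 and -0.04 for shRNA 2. With the replicate block 4 of the 9 regulators fell and 1 rose over both shRNAs, and the median was -0.20 with shRNA 1 and -0.25 with shRNA 2.

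The 4 mitochondrial ribosome proteins measured under other names, DAP3, PTCD3, CHCHD1 and GADD45GIP1, were called by limma in no comparison with scramble (0 of 4, with 1 at an unadjusted p under 0.05 over both shRNAs). Their median over both shRNAs was 0.27. CHCHD1 and GADD45GIP1 had 0.46 each, with adjusted p of 0.1 and 0.17, and with the replicate block both were called (0.03 and 0.021). The 52 tested cytosolic ribosomal protein genes had a median of -0.02 over both shRNAs. None (0) was called by limma there, with or without the block, and 0 had an unadjusted p under 0.05. RPL19 fell with shRNA 2 (-0.62 ± 0.15, adjusted p = 0.031). The replicate difference was shared by part of these lists. Replicate 1 was higher in 19, 18 and 18 of the 22 assembly factors and in 13, 12 and 12 of the 14 transcription and processing genes, in shRNA 1, shRNA 2 and scramble cells in turn. For the 52 cytosolic ribosomal protein genes the counts were 15, 5 and 10.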

How the data were processed

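The members and gene lists were chosen with earlier results of these data known. The deposited values are GCRMA log2 intensities of the authors, where GCRMA is named in the submitters' processing notes and the log2 scale was inferred from the values. The sources used here give no GCRMA version. Dim probe sets are compressed to a floor of 2.24, which 37.8% to 38.7% of an array's probe sets held. Per the labels' protocols, cRNA was made from 250 ng of RNA. Of 54675 probe sets, 41091 had 1 gene symbol in the platform annotation, 1801 had several and 11721 had none. The brightest probe set stood for each of 19775 genes, and 10526 genes with a mean of at least 4 were tested. For 46 of the 75 genes described that probe set is of a kind that can cross-hybridise (_s_at or _x_at).

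One limma model (version 3.58.1, R 4.3.3) was fitted to the 6 arrays together (3 residual degrees of freedom), with 2-sided tests and Benjamini-Hochberg adjustment over all tested genes. The number of arrays limits precision: the median SE was 0.14 in the comparison of both shRNAs with scramble and 0.17 elsewhere. Same-numbered arrays deviated together across tested genes (correlation 0.53 for shRNA 1 with shRNA 2, 0.75 for shRNA 1 with scramble, 0.51 for shRNA 2 with scramble), so the numbers, taken from sample titles, were used as pairs for the blocked fit. No 2 arrays were identical (0 pairs). Named genes were those called in any comparison, the 5 largest rises and falls in each, and the 3 brightest and dimmest. HSD17B10, FAU and KDM5A were added. Among called genes, 0 further probe sets above the filter had the opposite sign, so disagreeing probe sets added no gene. Genes without a call were not covered by that rule, and some disagreed. Between shRNA 1 and shRNA 2, the probe sets of MRPL35 had 0.18, -0.91 and 0.99. For other lists up to 4 genes with the smallest adjusted p over both shRNAs were chosen. A list without any call gave the 2 genes that changed most. List members beyond that, such as those called with 1 shRNA, and the promoter partners were picked after their values were seen. Alternatives were other normalizations, filters, probe set choices, models and leaving out each array. An array left out of the group not compared leaves that group without a spread. Such a fit is therefore the same as that of the compared groups alone and is no separate check. Promoter windows, motif matches and neighbouring genes come from RefSeq, assembly GRCh38.p14.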

Additional observations from a re-analysis of the deposited data

Results flagged for a closer look

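In 16 of the 75 genes (21.3%, against 41.1% of all tested genes) the effect of shRNA 1 differed from that of shRNA 2. The test was that of the difference itself (limma adjusted p under 0.05), and the 16 genes are listed here. These genes were lower with shRNA 1 than with shRNA 2, on the log2 scale: MRPL27 (-1.90), MRPL40 (-1.18), MRPL52 (-1.17), MRPL23 (-1.02), MRPL28 (-0.76), MRPL13 (-0.74), MRPL33 (-0.68), MRPL20 (-0.61), MRPL10 (-0.58), MRPS18B (-0.55), MRPL41 (-0.54) and MRPS34 (-0.47). MRPL49 (1.30), MRPS6 (1.25), MRPS27 (1.14) and MRPS15 (0.50) were higher with shRNA 1 than with shRNA 2. KDM5A was also higher with shRNA 1 than with shRNA 2, by 0.65 ± 0.11, and its part in these differences was not tested. MRPL40 was called lower with shRNA 1 and higher with shRNA 2. With the replicate block MRPL23, MRPL27 and MRPL52 were too. No group was large enough to look for single arrays far from the others.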

How the results depend on the processing

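Of the 38 calls of named genes over the 4 comparisons, 7 held whichever array was left out. The count of called genes in the mean of both shRNAs, 3, was 5 with centred arrays, 6 with quantile normalization and 5 with a stricter filter (mean of 6). It was 5 with limma-trend, 24 with the replicate block and 0 without the dim filter. Of all tested genes 12.5% were called at first, then 13.8%, 13.9%, 15.8%, 13.1%, 34.9% and 1.68% in the same order. For shRNA 1, 3 calls became 5 with the mean of all probe sets or limma-trend, 18 with the replicate block, and 0 with no filter or with the compared groups alone. Of all tested genes 11.5% were called at first, then 10.9%, 11.7%, 29.6%, 1.57% and 1.81% in the same order. For shRNA 2, 16 calls became 38 with the replicate block, 10 with the compared groups alone and 2 with no filter. Of all tested genes 31.0% were called at first, then 50.6%, 27.8% and 7.43% in the same order. Without cross-hybridising probe sets 13 of 39 genes were called, 8 higher and 5 lower, against 31.7% of all tested genes (16.8% higher and 15% lower). Between the shRNAs, 16 calls became 34 with the replicate block and 8 with no filter. Of all tested genes 41.1% were called at first, then 57.7% and 12.5%. Without cross-hybridising probe sets 11 of 39 genes were called, 7 higher and 4 lower, against 41.9% of all tested genes. With averaged probe sets 17 were called, 7 higher and 10 lower, against 39.8%. Leaving out 1 array gave 0 calls each time for the mean (7 to 18 genes at an unadjusted p under 0.05) and for shRNA 1 (9 to 15), 1 to 10 for shRNA 2 and 7 to 14 between the shRNAs, beside 0 to 457, 0 to 191, 624 to 2928 and 1874 to 3718 of all tested genes in turn. With no filter the model also holds dim genes at their floor: it called 0 of the 75 genes for the mean and for shRNA 1, with 18 and 11 genes at an unadjusted p under 0.05. Of the 38 calls none was lost with centred arrays, quantile normalization, a mean of at least 6 or the replicate block. Losses were 28 with no filter, 6 with averaged probe sets and 1 with limma-trend. With the compared groups alone 11 of 35 calls were lost. Without cross-hybridising probe sets 3 were lost of the 26 calls whose gene still had a probe set. No called gene that could be compared changed its sign. MRPL2, not called in the main comparison of the shRNAs at -0.23, was called at 0.49 without cross-hybridising probe sets, where another probe set stands for it.

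The large minus small subunit difference over both shRNAs, 0.06, was 0.0895 when a gene's probe sets were averaged and -0.0851 without cross-hybridising probe sets, and ran from -0.0271 to 0.0839 over the left-out arrays. For shRNA 1 it was -0.13, against -0.0571 with averaged probe sets, and ran from -0.129 to -0.0657. For shRNA 2 it was 0.15, against 0.131 with quantile normalization, 0.0812 with averaged probe sets and -0.218 without cross-hybridising ones, and ran from 0.0733 to 0.153. Between the shRNAs it was -0.18, against -0.0467 without cross-hybridising probe sets, and ran from -0.303 to -0.127. The spread of this difference between replicates was 0.017 (SD). The cause of these moves was not tested.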
